A study of Mus musculus with 6 samples.

Results

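Genes of cholesterol synthesis and of its control by sterol sensing were examined in subcutaneous fat of the groin (inguinal white adipose tissue) of female C57BL/6N mice. The 8 members are Hmgcs1, Idi1, Fdps, Sqle, Lss, Cyp51, Insig1 and Srebf2. They were chosen by symbol, and all 8 were found among the 25894 gene identifiers of the table. RNA was sequenced from 6 mice, with 1 library per mouse. In the group labelled SF 8w-SR 2w, 3 mice went through sleep fragmentation for 8 weeks and then had 2 weeks of sleep recovery (here the fragmented, recovered mice 1 to 3). The other group holds 3 mice labelled as controls, with no further account of their housing. The series text gives the age as 15 weeks without saying whether this was at the start or at collection. All mice were fasted for 10 h before the fat was taken, so every value describes fasted tissue, and the mice carry no transgene or drug treatment that the labels name.

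Cholesterol is built from acetyl-CoA through mevalonate, isoprenoid intermediates, squalene and lanosterol. Sterol regulatory element-binding protein 2, the product of Srebf2, is a membrane-bound transcription factor that switches these genes on. When sterols are plentiful, INSIG proteins hold it and its escort protein SCAP in the endoplasmic reticulum. When sterols run low it moves to the Golgi, is cut by site-1 and site-2 proteases, and the released fragment enters the nucleus. Adipose tissue is a large store of free cholesterol, and fat cells also take up cholesterol from lipoproteins in the blood.

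Promoter windows from RefSeq (build GRCm38.p6, from 250 bases before to 50 bases after the start of the gene) were matched for 6 of the 8 members; Sqle and Fdps had no matched window. The windows of 4 members are shown. Cyp51 and Insig1 had the smallest p-values of the set, Hmgcs1 acts early in the pathway and Srebf2 encodes the activator. Capitals mark matches on either strand to TCACNCCA (a core of the sterol regulatory element), CACGTG (an E-box, which SREBPs can also bind) or CCAAT (the site of NF-Y, a partner of SREBPs). The windows are Cyp51 at chr5:4104648-4104947 on the minus strand, and Insig1 at chr5:28071162-28071461, Hmgcs1 at chr13:119690101-119690400 and Srebf2 at chr15:82147019-82147318 on the plus strand.
Cyp51: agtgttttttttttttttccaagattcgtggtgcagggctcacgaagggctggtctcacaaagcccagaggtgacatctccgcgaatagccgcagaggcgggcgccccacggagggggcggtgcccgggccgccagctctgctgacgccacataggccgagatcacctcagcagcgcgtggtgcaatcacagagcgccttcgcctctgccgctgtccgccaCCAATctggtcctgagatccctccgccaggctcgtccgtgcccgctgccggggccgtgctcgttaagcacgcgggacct
Insig1: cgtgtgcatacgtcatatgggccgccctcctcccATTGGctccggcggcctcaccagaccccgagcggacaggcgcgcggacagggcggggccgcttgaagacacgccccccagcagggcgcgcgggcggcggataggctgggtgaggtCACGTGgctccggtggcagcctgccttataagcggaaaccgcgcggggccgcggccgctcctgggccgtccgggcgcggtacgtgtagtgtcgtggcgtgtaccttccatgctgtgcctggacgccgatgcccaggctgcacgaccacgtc
Hmgcs1: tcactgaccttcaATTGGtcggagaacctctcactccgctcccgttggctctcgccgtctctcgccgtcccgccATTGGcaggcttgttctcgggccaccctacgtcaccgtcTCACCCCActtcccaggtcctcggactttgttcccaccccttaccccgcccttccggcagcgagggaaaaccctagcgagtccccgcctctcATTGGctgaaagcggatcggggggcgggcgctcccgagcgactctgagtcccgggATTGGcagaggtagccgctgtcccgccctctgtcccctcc
Srebf2: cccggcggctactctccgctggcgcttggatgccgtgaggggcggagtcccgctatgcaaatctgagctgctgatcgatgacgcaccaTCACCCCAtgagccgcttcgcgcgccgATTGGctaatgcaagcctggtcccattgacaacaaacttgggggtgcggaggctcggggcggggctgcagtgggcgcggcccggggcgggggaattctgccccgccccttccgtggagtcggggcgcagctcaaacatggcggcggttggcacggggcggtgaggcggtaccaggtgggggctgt

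The letters TCACCCCA stood in the windows of Hmgcs1, beginning 137 bases before the start, and Srebf2, beginning 162 bases before it. The core TCACNCCA was found in 4.36% of all 32851 promoter windows of the same 300 bases. Insig1 held CACGTG, which 7.15% of windows held. CCAAT or its reverse complement was present in all 6 matched members, with 4 matches in Hmgcs1, 2 in Idi1 and 1 each in Lss, Insig1, Cyp51 and Srebf2, against 37.4% of all windows. Overlap between the motifs was not found in these 6 windows. These are letter matches only, and the series holds no binding data.

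Libraries held 15610201 to 19703569 recovered reads. Adipocyte markers were present in every library, with 0 of 9 at 0 and summed normalised counts of 385700 to 692800 in fragmented, recovered mice and 365500 to 560800 in controls. Of these, 7 of 9 had higher mean log2 values in fragmented, recovered mice, with a median of 0.29 that was 0.02 with GC and length trends removed. Fabp4, the fatty acid binding protein of fat cells, had 208560.7, 124732.9 and 118585.2 in fragmented, recovered mice and 188052.1, 41622.2 and 52485.5 in controls, a log2 difference of 0.97 (SE 0.62). Lpl, lipoprotein lipase, went the other way at -0.58 (SE 0.52), with all 3 fragmented, recovered mice below all controls. The margin was narrow, with fragmented, recovered mouse 3 at 182692.0 and control 1 at 183246.5. Other tissues were present to unequal degrees. B and plasma cell markers, 8 of 8 with lower mean log2 values in fragmented, recovered mice, summed to 29010 in fragmented, recovered mouse 2, 71680 in control 2 and 16650 in control 3, and to between 1540 and 2748 in the other 3 mice. By edgeR 7 of these 8 were lower, and by limma without control 2 only 4 of 8 were. Skeletal muscle markers (8 of 8 higher) summed to 80940 in fragmented, recovered mouse 1 and to between 186 and 10220 in the rest, and without that mouse 3 of 8 were higher. Mammary epithelium markers (8 of 8 higher) summed to 7430 and 9225 in controls 2 and 3 and to between 26610 and 34420 elsewhere. T cell markers were lower for 5 of 6 by limma and for 2 of 6 by edgeR, macrophage markers for 4 of 5 and cell cycle genes for 7 of 7, and skin markers were higher for 5 of 7. Pax5 was at 0 in fragmented, recovered mouse 1 and in control 1. Of the 8 muscle markers 5 were at 0 in control 3 and 2 in fragmented, recovered mouse 3. Genes rich in GC read lower in controls 2 and 3 (rho with GC content -0.27 in each, across genes) and higher in the other 4 libraries (0.13 to 0.37). On the first principal component controls 2 and 3, at 116.2 and 111.5, stood far from control 1 at -77.0, which lay beside fragmented, recovered mice 1 and 3 at -90.6 and -69.0. The share of these tissues and of GC content in the members' values was not tested. Values with mice left out, in the B cell subsets and from the adjusted fits are given below, and they do not measure that share. In bulk tissue, fewer cells of a type and less RNA per cell cannot be told apart.

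Per transcript length, the members spanned a wide range in this fat. Levels were set per kilobase of the longest protein-coding transcript, using normalised read counts (reads divided by 1 size factor per library), and are given as mean ± SD over all 6 mice. Insig1, the sterol sensor, was highest at 1437 ± 513 normalised reads per kilobase. Hmgcs1 followed at 637 ± 166 and Srebf2 at 272 ± 60.7. The order Insig1, Hmgcs1, Srebf2 held in 6 of 6 mice, and the SD ranges of these neighbours did not overlap. Cyp51 at 157 ± 60.0 and Sqle at 145 ± 16.2 were not separated by their spread. In each of the 3 controls Cyp51 lay above Sqle, though in control 1 only at 165.4 against 164.2. In each of the 3 fragmented, recovered mice it lay below. This crossing depends on the division by transcript length, since Cyp51 had more reads than Sqle in all 6 mice. Lss at 77.8 ± 21.0 and Idi1 at 77.8 ± 29.8 did not differ, with Lss the higher in 3 of 6 mice. Fdps stood far below the rest at 3.27 ± 1.45.

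**Figure D1:**
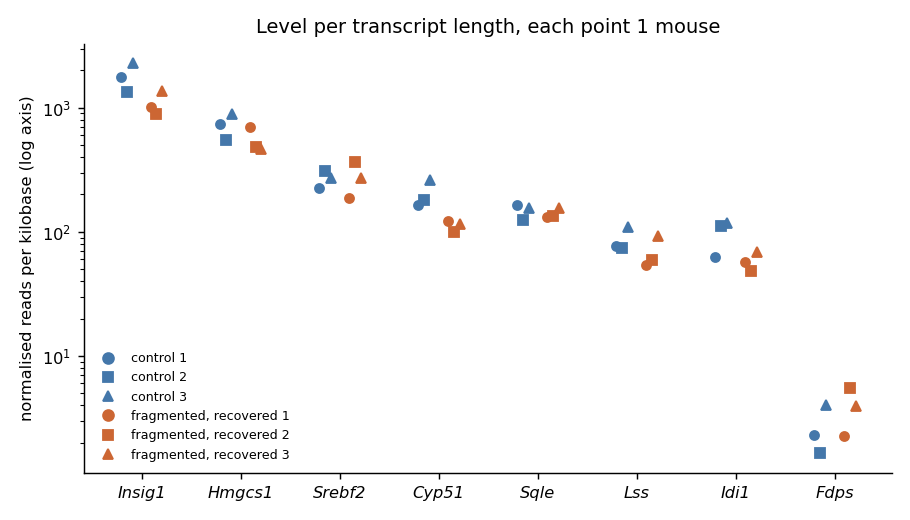
Normalised reads per kilobase of the longest protein-coding transcript (log axis) for the 8 members, ordered by mean level, with 1 point for each of 6 mice. Insig1 is the highest member in every mouse and Fdps the lowest, and the Cyp51 points of controls lie above those of fragmented, recovered mice.

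The Fdps value is uncertain as a level of that transcript. Of the 1333 stretches of 50 bases in its longest protein-coding transcript, 86.4% also occur in transcripts of other annotated genes (GENCODE M21). The same-strand gene Gm43738 overlaps its exons and shares 77.3%, and the processed pseudogene Gm3571 shares 40.1%. Gm3571 had normalised counts of 20.5 to 34.1, above the 2.3 to 7.6 of Fdps, and Gm43738 was absent from the gene identifiers. How shared reads were counted is not given in the sources used here. For Idi1 the shared part was 30.5%, for Hmgcs1 13.6%, and for Lss, Cyp51 and Insig1 between 2.49% and 4.35%. Sqle and Srebf2 shared 0%. The shared part of Hmgcs1 lies in Gm48342, annotated on the opposite strand, whose normalised counts were at most 4.52. Cyp51 overlaps Akap9 on the opposite strand over 3.76% of its exon bases. Normalised counts of Akap9 ran from 751 to 1960, beside 389.9 to 1030.4 for Cyp51. Whether Akap9 reads enter the Cyp51 count was not tested.

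Between the groups, 7 of the 8 members had lower mean log2 values in the fragmented, recovered mice and 1, Fdps, a higher one, and none passed the test. Over all genes tested, 48.4% were lower and 51.6% higher. The median log2 difference of the 8 was -0.37, and -0.40 without Fdps, beside 0.02 over the 22290 genes tested. With GC and length trends removed the median of the 8 was -0.21, and without control 3 it was -0.20. Cyp51 and Insig1 had the largest separation relative to their spread, and Sqle and Srebf2 were close to equal in both groups. By limma on log2(normalised count + 1), with Benjamini-Hochberg adjustment over all genes and a threshold of 0.05, 0 of 8 members were called, and 0% of all genes were. At an unadjusted limma p under 0.05 there were 2 members lower and 0 higher, where 2.14% of all genes were lower and 3.24% higher. All fragmented, recovered mice lay below all controls for 1 member and above them for 0, beside 3.58% and 5.02% of all genes. The signs of Srebf2 and Sqle, both near 0, turned when scaling was by library size alone, which moved the median of all genes to 0.14. Over all genes 1201 had an unadjusted p under 0.05. edgeR called 0 genes (754 at an unadjusted p under 0.05) and DESeq2 called 0 (1186), both on recovered reads. The members were chosen with these data known, so the counts describe the set and are no evidence of its direction.

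**Figure D2:**
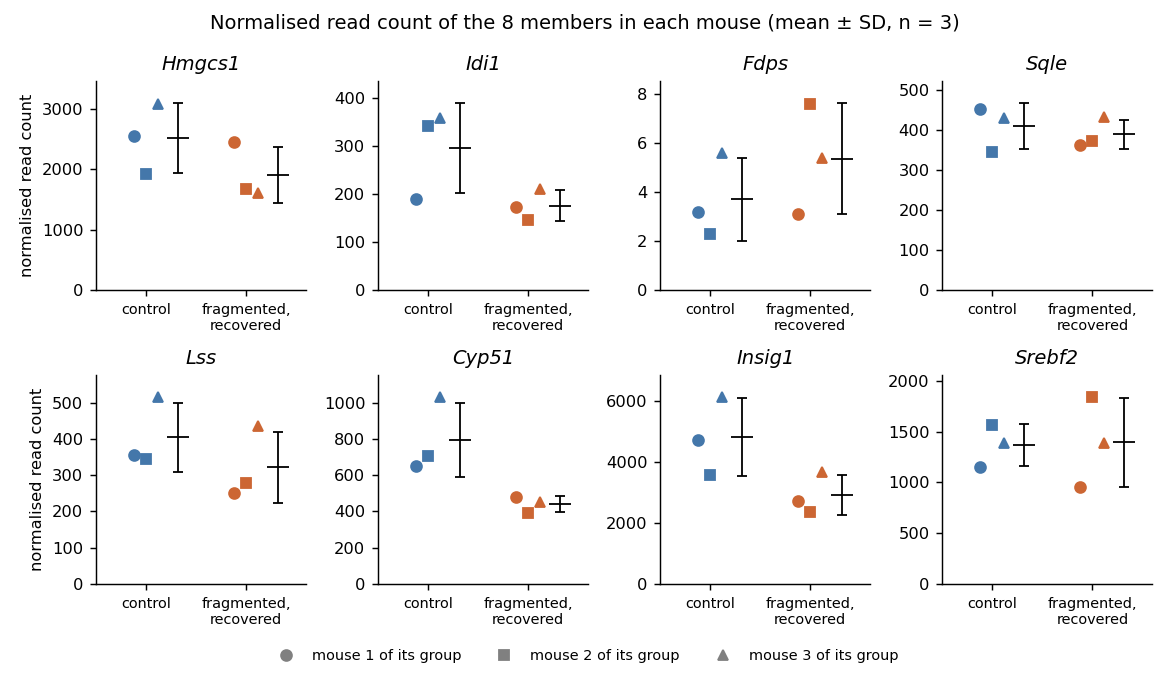
Normalised read count (linear axis from 0) of each member in each mouse, controls in blue and fragmented, recovered mice in orange, with black bars for mean ± SD of 3 mice. Only in the Cyp51 panel do all 3 fragmented, recovered mice, at 389.9 to 480.0, lie below all 3 controls, at 650.1 to 1030.4.

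Hmgcs1 (ENSMUSG00000093930) encodes the cytosolic HMG-CoA synthase, an early step on the way to mevalonate. Its normalised counts were 2441.5, 1664.2 and 1601.7 in fragmented, recovered mice 1, 2 and 3, and 2541.9, 1919.4 and 3071.3 in controls 1, 2 and 3. Fragmented, recovered mouse 1 lay within the control range and the other 2 lay below it, so the groups overlapped. The means were 1903 ± 468 and 2511 ± 577 (SD, n = 3 each). The log2 difference was -0.40 with an SE of 0.27 (limma adjusted p = 0.700). It was -0.18 with GC and length trends removed, and with 1 mouse left out it ran from -0.59, without fragmented, recovered mouse 1, to -0.24, without control 3.

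Idi1 (ENSMUSG00000058258), the isomerase that interconverts the activated isoprene units, had 172.1, 145.6 and 209.5 in fragmented, recovered mice and 188.6, 340.2 and 356.5 in controls. Control 1 lay among the fragmented, recovered mice, while controls 2 and 3 stood well above. The means were 175.7 ± 32.1 and 295.1 ± 92.6 (SD, n = 3 each), and the log2 difference was -0.70 (SE 0.35, limma adjusted p = 0.697). Fdps (ENSMUSG00000059743), which encodes farnesyl diphosphate synthase, rested on 2 to 10 recovered reads per library. Its counts were 3.1, 7.6 and 5.4 against 3.2, 2.3 and 5.6, with overlapping groups and a log2 difference of 0.44 (SE 0.78). Its 95% interval, from -1.30 to 2.19, covers large changes either way, and with 1 mouse left out the difference ran from 0.20 to 0.73.

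Sqle (ENSMUSG00000022351) encodes squalene epoxidase, the oxygen-dependent step that commits squalene to sterols. It varied least among the mice, at 362.9, 371.7 and 431.6 in the fragmented, recovered group and 453.0, 344.8 and 430.0 in controls. The groups overlapped throughout. The log2 difference was -0.07 (SE 0.26), with a 95% interval from -0.64 to 0.50, so these 6 mice do not resolve differences inside that range.

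Lss (ENSMUSG00000033105), lanosterol synthase, closes the sterol ring. Counts were 250.9, 279.1 and 434.3 in fragmented, recovered mice and 356.0, 343.6 and 514.7 in controls. Mouse 3 was the highest of each group, and fragmented, recovered mouse 3 exceeded 2 of the controls. The log2 difference of -0.35 (SE 0.31) did not pass (limma adjusted p = 0.750). It was -0.17 with GC and length trends removed, -0.16 without control 3, -0.19 without fragmented, recovered mouse 1 and -0.59 without fragmented, recovered mouse 3.

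Cyp51 (ENSMUSG00000001467), the cytochrome P450 that demethylates lanosterol, was the member whose groups did not overlap. Its counts were 480.0, 389.9 and 451.4 in fragmented, recovered mice and 650.1, 707.6 and 1030.4 in controls. Every fragmented, recovered mouse lay below every control, with a gap between the groups wider than the SD of the lower one. The means were 440.5 ± 46.1 and 796.1 ± 205 (SD, n = 3 each), a ratio of 0.553. The log2 difference was -0.83 (SE 0.26, 95% interval -1.42 to -0.23), with an unadjusted limma p of 0.0114 and an adjusted p of 0.697. With limma-voom and sample quality weights Cyp51 was called at -1.01 (adjusted p = 0.0455). That method called 1 of the 7 members it tested and 1023 of 16141 genes, with a smallest adjusted p of 0.0451. With 1 mouse left out the difference of Cyp51 ran from -0.96 to -0.63. Over the other alternatives its adjusted p ran from 0.0692, without control 1, to 1. Within each library, a measure that scaling cannot alter, the ratio of Cyp51 to Sqle reads was 1.32, 1.05 and 1.05 in fragmented, recovered mice and 1.44, 2.05 and 2.40 in controls. This pair was picked after its values were seen. The ratio of Cyp51 to Srebf2 reads was 0.501, 0.212 and 0.325 in fragmented, recovered mice. In controls it was 0.564, 0.452 and 0.741, so with Srebf2 as the reference the groups overlapped.

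Insig1 (ENSMUSG00000045294) encodes an endoplasmic reticulum protein that retains SCAP and SREBP, and it is itself a target of SREBPs. Counts were 2714.2, 2381.1 and 3677.5 in fragmented, recovered mice and 4743.9, 3596.8 and 6138.1 in controls. Only fragmented, recovered mouse 3 and control 2 crossed, by a margin smaller than the SD of either group. The means were 2924 ± 673 and 4826 ± 1273 (SD, n = 3 each), a ratio of 0.606. The log2 difference was -0.71 (SE 0.28, 95% interval -1.34 to -0.09), with an unadjusted limma p of 0.0301 and an adjusted p of 0.697. Relative to Srebf2 in the same library, Insig1 reads were 2.83, 1.29 and 2.64 times as many in fragmented, recovered mice and 4.12, 2.30 and 4.42 times as many in controls, so these ratios overlapped. This pair too was picked after its values were seen. With 1 mouse left out the log2 difference of Insig1 ran from -0.91, without control 2, to -0.52, without control 3.

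Srebf2 (ENSMUSG00000022463), the gene of the activator, had 958.0, 1838.7 and 1390.4 in fragmented, recovered mice and 1152.1, 1565.6 and 1390.3 in controls. The lowest and the highest of the 6 values were both in the fragmented, recovered group. The log2 difference was -0.01 (SE 0.28, 95% interval -0.65 to 0.62). Its sign turned in 11 of 20 alternatives, with values from -0.25 to 0.32. The transcript level does not measure how much of the protein is cleaved.

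Across the 6 mice, the members did not all vary together. Pearson r of each member's log2 values with the mean standardised level of the other 7 was 0.88 for Insig1 and for Lss, 0.74 for Cyp51, 0.58 for Idi1, 0.47 for Sqle and 0.36 for Hmgcs1. It was 0.01 for Fdps and -0.03 for Srebf2. The closest pairs were Cyp51 with Insig1 at 0.88, and Cyp51 with Idi1 and Lss with Insig1 at 0.86 each. Hmgcs1 and Srebf2 ran in opposite directions at -0.55. These values describe 6 libraries that share 1 table, scaling and group structure. The mean standardised level of the 8 was -0.73, -0.41 and 0.02 in fragmented, recovered mice and 0.14, -0.10 and 1.07 in controls. Control 3 was the highest by far and fragmented, recovered mouse 3 lay between controls 2 and 1.

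Among 11309 other genes with a mean normalised count of at least 100, those whose log2 values most resembled this mean profile over the 6 mice were Acacb (r = 0.992), Fam168a (0.981), Esr1 (0.971), Tango6 (0.964), Ttc38 (0.964), Fam13a (0.963), Clmn (0.955) and Stxbp4 (0.951). Acacb, the acetyl-CoA carboxylase of the outer mitochondrial membrane, had 3715.7, 4906.3 and 5858.8 in fragmented, recovered mice and 6261.6, 5752.4 and 9966.8 in controls. Its lowest value was in fragmented, recovered mouse 1 and its highest in control 3, as in the profile. With 6 points and so many candidates, high r values are found for some genes in any table.

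The rest of the pathway held genes with differences in both directions. Of 16 other cholesterol synthesis enzymes, 10 had lower and 6 higher mean log2 values in fragmented, recovered mice, with a median difference of -0.22, and 0 passed. The median was -0.34 with GC and length trends removed, -0.09 without fragmented, recovered mouse 2 and -0.13 without control 1. Over all genes 48.4% were lower. Lbr, which encodes the lamin B receptor and sterol reductase, had -0.92 (SE 0.50), with 588.3 in control 1 against 2651.8 and 1725.6 in controls 2 and 3. Ebp, a sterol isomerase, had 0.79 (SE 0.41), also with control 1, at 586.2, apart from controls 2 and 3, at 215.9 and 205.0. Without control 1, Lbr (-1.54, limma adjusted p = 0.0496) and Ebp (1.28, 0.0399) passed, among 844 of 22290 genes. Ebp, but not Lbr, was also called by limma-voom with quality weights (1.17, adjusted p = 0.047). Sc5d, a late desaturase, was even at -0.04 (SE 0.26).

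**Figure D3:**
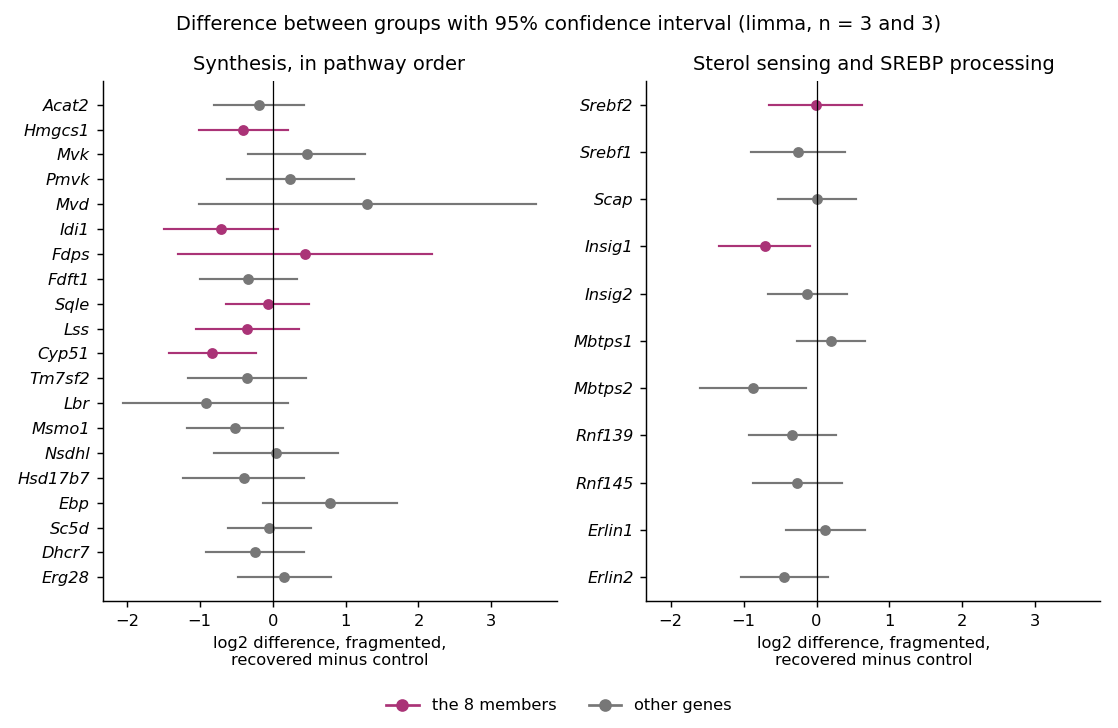
Log2 difference, fragmented, recovered minus control, with 95% confidence interval (limma, 3 mice per group), for synthesis enzymes in pathway order ending with the scaffold gene Erg28 (left) and for sterol sensing genes (right), members in purple. Intervals of Cyp51, Insig1 and Mbtps2 lie below 0 without adjustment for multiple tests, and none passed after it.

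In the sensing machinery, 7 of 10 other genes were lower and 3 higher, with a median of -0.26 and 0 called. The median was -0.40 without control 1 and -0.17 without control 3. Mbtps2, the site-2 protease that releases SREBPs, had -0.87 (SE 0.33, limma adjusted p = 0.697). Its counts were 408.5, 387.6 and 552.6 in fragmented, recovered mice and 529.7, 862.5 and 1169.7 in controls, with control 1 inside the range of the first group. With limma-voom and quality weights Mbtps2 was called (-1.13, adjusted p = 0.0462). Scap, the escort of SREBPs, had 0.00 (SE 0.24), Insig2, the second INSIG gene, -0.13 (SE 0.24) and Srebf1, the gene of the lipogenic SREBP, -0.25 (SE 0.29). Erlin2, an endoplasmic reticulum membrane protein, had -0.44 (SE 0.27). Thus the values of Insig1 were not matched in size by Insig2 or Scap, a contrast between genes that was not tested. Spring1 was not matched by symbol.

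**Figure D4:**
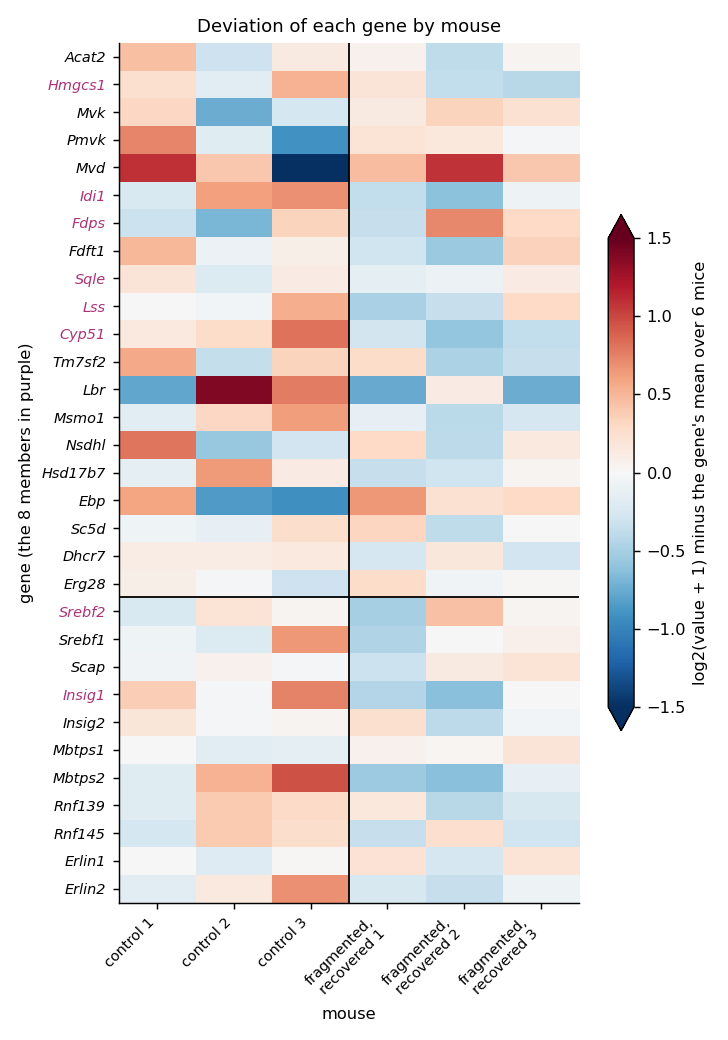
Deviation of log2(value + 1) from each gene's mean over the 6 mice (colour, red above and blue below, ends of the scale at 1.5), for synthesis genes above the line and sensing genes below it, members in purple. Control 3 is the reddest column for Cyp51, Insig1, Lss and Hmgcs1, and for Lbr and Ebp controls 2 and 3 differ from control 1.

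Sterol uptake and transport genes were lower for 9 of 14 and higher for 5, with a median of -0.24 and 0 called. Without fragmented, recovered mouse 1 the direction turned, with 8 higher, 6 lower and a median of 0.01, and with GC and length trends removed the median was -0.11. Stard4, a sterol carrier driven by SREBP-2, had 204.2, 303.4 and 226.6 against 230.2, 758.5 and 804.3. Control 1 sat with the fragmented, recovered mice, and the difference of -1.10 (SE 0.46) passed only without control 1 (-1.69, limma adjusted p = 0.0294) and with quality weights (-1.53, 0.0451). Scarb1, the receptor for high-density lipoprotein, had 0.64 (SE 0.29), Npc2, a lysosomal sterol carrier, 0.40 (SE 0.35) and Lrp1, a large endocytic receptor, -0.03 (SE 0.27). Of these, Scarb1 was called by limma-voom with quality weights (0.90, adjusted p = 0.0488).

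Efflux and liver X receptor genes, which respond to sterol excess, were higher for 6 of 9, with a median of 0.51 and 0 called. That median was 0.04 with GC and length trends removed and 0.26 without fragmented, recovered mouse 1. Apoe, the apolipoprotein that accepts cellular cholesterol, had 38657.2, 30822.0 and 14667.4 in fragmented, recovered mice and 21286.2, 9079.1 and 7976.2 in controls, a difference of 1.17 (SE 0.47). Nr1h2, which encodes liver X receptor beta, had 0.85 (SE 0.32), while Abca1, the main sterol exporter, had -0.88 (SE 0.42). Its counts of 10659.3 and 12681.6 in controls 2 and 3 were far above 3746.3 in control 1. Without control 1 Nr1h2 (1.19, limma adjusted p = 0.0388) and Abca1 (-1.42, 0.0317) passed, in opposite directions. Limma-voom with quality weights called them too, at 1.22 (adjusted p = 0.0451) and -1.31 (0.0451). Of the 4 esterification genes 2 were higher and 2 lower (median -0.34, 0 called). With 1 mouse left out this median ran from -0.88, without fragmented, recovered mouse 2, to 0.17, without fragmented, recovered mouse 1, and so the median of the 4 has no stable sign. The 2 higher genes, Soat2 and Lcat, rested on 0 to 17 and 0 to 20 recovered reads per library. With a mean of at least 10 required, 2 genes were left, both lower with overlapping groups, and their median was -1.01. In this list Soat1, which esterifies cholesterol, had -0.86 (SE 0.46) and Nceh1, a cholesteryl ester hydrolase, had -1.16 (SE 0.46). Both passed without control 1, at -1.46 (limma adjusted p = 0.0338) and -1.73 (0.0307). With limma-voom and quality weights both were called as well, at -1.26 (adjusted p = 0.0488) and -1.49 (0.0451).

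Isoprenoid branch genes, which use the same intermediates for prenylation, dolichol and ubiquinone, were split 7 higher and 5 lower, with a median of 0.03 and 0 called, and with 1 mouse left out the median ran from -0.10 to 0.01. Pggt1b, a subunit of a protein prenyltransferase, had 350.4, 373.2 and 412.6 in fragmented, recovered mice and 451.9, 954.0 and 1005.9 in controls, and so did not overlap. Fntb, a farnesyltransferase subunit, had a log2 difference of 0.46 (SE 0.32), Nus1, of the dolichol branch, -0.33 (SE 0.23) and Fnta 0.15 (SE 0.29). Pggt1b passed without control 1 (-1.37, limma adjusted p = 0.0294) and with limma-voom and quality weights (-1.27, adjusted p = 0.0451). Of 11 lipogenic genes driven by SREBP-1, 10 were lower and 1 higher, with a median of -0.43 and 0 called. With 1 mouse left out the median ran from -0.87, without control 2, to -0.18, without control 1. Fasn, fatty acid synthase, had counts of 29857.3, 38034.2 and 111010.0 in fragmented, recovered mice and 122854.9, 40230.7 and 128509.6 in controls. Fragmented, recovered mouse 3 and controls 1 and 3 were high and the other 3 mice low, and the difference was -0.78 (SE 0.63). Scd1, a desaturase, had -0.86 (SE 0.88), Elovl6, an elongase, -0.97 (SE 0.66) and Acaca, acetyl-CoA carboxylase, -0.62 (SE 0.50). All fragmented, recovered mice lay below all controls for 2 of the 11, Scd1 among them, beside 3.58% of all genes.

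Split by B cell markers, after seeing the data, the members gave the following values. In the 3 mice low in these markers (fragmented, recovered 1 and 3 against control 1), Cyp51 had a log2 difference of -0.48, Insig1 -0.59, Hmgcs1 -0.36, Lss -0.11, Sqle -0.19 and Idi1 0.01. In the 3 mice high in them (fragmented, recovered 2 against controls 2 and 3) the values were -1.13, -0.98, -0.54, -0.59, -0.05 and -1.25. Srebf2 had 0.00 and 0.32, and the median of the 8 was -0.15 and -0.57. Each subset sets 1 mouse against 2, so these are values of single mice and no test of the members. With the B cell marker level as a covariate, Cyp51 had -0.81 and the adjusted p was 0.886.

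**Figure D5:**
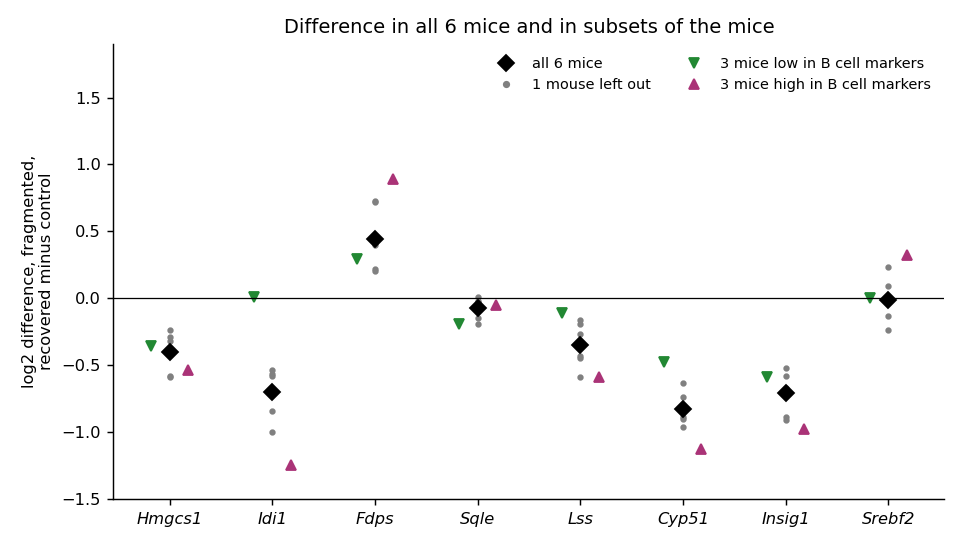
Log2 difference, fragmented, recovered minus control, of each member in all 6 mice (black diamonds), with 1 mouse left out (grey dots) and in the 3 mice low (green) or high (purple) in B cell markers. Cyp51, Insig1, Hmgcs1 and Lss are below 0 at every point drawn, and Sqle and Srebf2 straddle 0.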

How the data were processed

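The authors deposited 1 table with a value per Ensembl gene and mouse. Per the submitters' processing notes, CASAVA, HISAT2 2.0.5, featureCounts 1.5.0-p3 and build mm8 were used; the scaling is not stated. The deposited signal is a scaled count, with 1 divisor for each library. Taking the lowest value of a column as 1 read turned 100% of its values into whole reads, within 0.02. Recovered divisors ran from 0.8847 to 1.3183. Promoters and transcripts are of GRCm38, not mm8, so no read positions are compared with them. Symbols came from a reference table of gene names, which left 33 identifiers unmatched.

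All 6 libraries were fitted with limma 3.58.1 (R 4.3.3), with an intensity trend, on log2(value + 1) for 22290 genes with a mean of at least 1, two-sided. This scale understates changes of low genes. The p-values rest on 3 mice per group. edgeR 4.0.16, DESeq2 1.42.0 and limma-voom on recovered reads were alternatives, besides other pseudocounts, filters and scaling, trends on GC content and transcript length (splines of 4 degrees of freedom), a B cell marker covariate, a replicate block and each mouse left out. The limma step was tested on simulated data.

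The members, lists and alternatives were chosen with earlier results of these data known. Named genes are all members, Srebf1, Scap and Insig2, in each pathway list the 2 most abundant and the 2 with the smallest unadjusted p, and the 8 most similar genes; marker lists are given by their sums. Some genes that this rule names or that the lists count are not reported here by name, and the plots leave them out.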

Additional observations from a re-analysis of the deposited data

How the results depend on the processing

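With all 6 mice the count of 0 genes past the threshold held under every filter, pseudocount, scaling and test run except limma-voom with quality weights. That fit called 1023 of the 16141 genes it tested. With 1 mouse left out the count ranged from 0 to 844, the latter without control 1. The members' median difference ranged from -0.57 to -0.15 over 21 alternatives and from -0.51 to -0.20 with 1 mouse left out. Both ends of the first range came from the subsets split by B cell markers, the low subset at -0.15 and the high subset at -0.57.

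Directions turned for 3 members. Srebf2 had 0.05 with edgeR and TMM, 0.03 with edgeR and DESeq2 size factors, 0.03 with DESeq2, 0.01 with quality weights, 0.11 with library size alone, 0.13 with the B cell covariate, and 0.00 and 0.32 in the subsets low and high in B cell markers. With 1 mouse left out it ranged from -0.24 to 0.23. Sqle, from -0.19 to 0.01 with 1 mouse left out, had 0.05 with library size alone, 0.02 with GC and length trends removed and 0.01 without control 1. Idi1 had 0.01 in the subset low in B cell markers. Library size scaling moved the median of all genes from 0.02 to 0.14, so relative to that shift both Sqle and Srebf2 stayed below it. The cause was not tested.

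The replicate block gave 0 calls, with a smallest adjusted p of 0.0705 and 2676 genes at an unadjusted p under 0.05, and Cyp51 at an adjusted p of 0.370. Same-numbered mice correlated at 0.177, 0.393 and 0.042 in their deviations. Fragmented, recovered mice 1 and 2 matched the control of their own number best, and mouse 3 did not. Whether the numbers pair the mice cannot be told from so few mice. Fdps could not be fitted by the edgeR, limma-voom and mean of at least 10 alternatives, which removed it. Between 2 and 10 reads per library limit Fdps.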
